A study of Mus musculus with 7 samples.

Results

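The control state of differentiating C2C12 cells was described from the 2 RNA-seq samples that received the scramble siRNA (si-SCR) and were collected on day 2 of differentiation. All rows of the RPKM table whose mean over si-SCR 1 and si-SCR 2 was at least 0.5 were taken, which gave 11037 of 11642 rows (94.8%). A row is a gene, or, for 532 of the rows taken, a set of overlapping genes that share 1 value. RPKM is the number of reads per kilobase of gene length and per 1000000 reads, so that levels of different genes can be compared per unit of length. Both samples are of 1 cell line, C2C12, a line of mouse myoblasts, and both carry the scramble siRNA, so cells without siRNA were not analysed here. The other samples of the series are 2 with an siRNA against lnc-SMaRT and 3 from an RNA pull-down. Those with the siRNA against lnc-SMaRT were not compared with the controls and served only to work out reads. Of the pull-down, 2 lists of peaks were set beside the control levels. The libraries were made from total RNA depleted of rRNA with a stranded kit, and the labels give the cells as murine myoblasts. The study states that the replicates were separate cell populations. Pairs of values are given as si-SCR 1 and then si-SCR 2, and errors are SDs over 2 samples. The library sizes behind the RPKM values, after the scaling of the authors, were 12654120 and 14132628 reads, and the median row rested on 381 and 435 reads.

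Myoblasts leave the cell cycle when serum is withdrawn, express the muscle regulatory factors of the MyoD family, fuse, and assemble sarcomeres, the repeating units of contraction. In the sarcomere, thick filaments of myosin slide along thin filaments of actin, and the troponin and tropomyosin proteins on the thin filament make this movement depend on calcium. Many of these proteins are encoded by several genes that are used in embryonic, slow, fast, cardiac or smooth muscle, and the member that dominates a family is one description of the state of a muscle cell. In cultures of whole wells, fewer cells of a type and less RNA per cell cannot be told apart.

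The 5 markers of the myotube state lay among the most abundant rows of both samples. Mylpf, the regulatory light chain of fast skeletal myosin, had 6687 and 5289.9 RPKM (mean 5988 ± 988, SD, n = 2). It ranked 4 and 5 among all rows. Tnnc2, the calcium-binding subunit of fast troponin, had 2643 and 2249 RPKM (mean 2446 ± 278, SD, n = 2). Myh3, the embryonic myosin heavy chain, had 1161 and 1259.8 RPKM (mean 1210.4 ± 69.8, SD, n = 2). Myog, the transcription factor that drives terminal differentiation, had 1015 and 1114 RPKM (mean 1064 ± 70.0, SD, n = 2). Myl1, an essential light chain of fast myosin, had 906 and 713 RPKM (mean 809.5 ± 137, SD, n = 2). The lowest of these 5 means, that of Myl1, lay above 99.4% of the rows taken, whose median was 7.59. Mylpf, Tnnc2 and Myl1 were lower in si-SCR 2, and Myh3 and Myog were higher there. By rank, the order Mylpf, Tnnc2, Myh3, Myog and Myl1 was the same in both samples, and no pair of neighbours in it overlapped.

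The following windows show the E-box, written CANNTG, and in the last window the TATA motif TATAAA. The E-box is the site that MyoD family factors and their E-protein partners are known to bind. Myog and Tnnc2 each hold a further CANNTG that is not printed, CACATG at -138 and CATCTG at -88. The share of all promoters that hold a CANNTG was not counted. All windows come from the RefSeq promoter sequences of GRCm38.p6, which run from 250 bases before to 50 bases after the start of a transcript. Each window holds 30 bases on the strand of the gene with the motif in capitals, and the number after the name is the position of its first letter from the start.
Mylpf -51: cttcctgggctcCAGCTGctgcaggcctcc
Myl1 -224: aggtacgtctgtCAGCTGtcaccaaaccaa
Myog -12: aatggcacccagCAGTTGgtgtgaggggct
Tnnc2 -183: gccagagagtgcCACCTGctccgaagctta
Myh3 -191: cccagctttctaCAGTTGgaaaaaatggtt
Myh3 -29: ttagtggtggccTATAAAagcccagggggc
The windows lie at chr7:127211545-127211574 (plus strand), chr1:66945263-66945292 (minus), chr1:134289980-134290009 (plus), chr2:164779900-164779929 (minus) and, for Myh3, chr11:67078097-67078126 and chr11:67078259-67078288 (plus). Against the GENCODE M21 transcripts of each gene, both Myh3 windows lie outside all 3 transcripts. The Myog window runs across the start of its 1 transcript. Since other transcripts start further upstream, the Tnnc2 window lies in an exon of 1 of 2 transcripts, the Myl1 window in an exon of 2 of 8, and the Mylpf window in an intron of 2 of 6.

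The E-box form CAGCTG, which reads the same on both strands, was searched in the promoters of all genes. It occurred in 18.3% of 27025 genes with a promoter sequence and in 18.1% of the 8099 rows taken that had one. Among genes of the contractile apparatus it occurred in 17 of 46, among them Mylpf, Acta1, Myl1, Tpm2 and Des. Among genes of excitation-contraction coupling it occurred in 7 of 11, including Atp2a1, Cav3 and Casq1. It occurred in 2 of 46 ribosomal protein genes and in 4 of 31 genes of replication and mitosis. Across the abundance classes of protein-coding rows the share fell from 21.8% of rows at a mean RPKM of 0.5 to 1 through 19.8%, 17% and 16.4% to 15.2% at 100 to 500, and it was 24.6% over 500 (16 of 65). The TATA motif TATAAA, searched on the strand of the gene from -40 to -15, occurred in 1.35% of the rows taken, in 5 of the 46 contractile genes (Myh3, Tnnt1, Myh1, Ankrd2 and Myh4) and in 0 of the 46 ribosomal protein genes. It occurred in 16 of 302 coding rows with a mean RPKM of 100 to 500 and in 25 of 2492 rows of 1 to 5. These matches are letters in a fixed window, and no factor was measured.

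Most markers of other cell types lay near the lower limit or were not among the rows taken. None of the 7 endothelial markers and none of the 8 neural and Schwann cell markers had a row among those taken. Of 7 adipocyte markers only Pparg was taken, at 1.75 and 1.57. Of 9 leukocyte marker symbols, of which Emr1 and Adgre1 name the same gene, Cd14 (2.01 and 1.71), Cd68 (1.13 and 0.788) and Itgam (0.496 and 0.555) were taken. Ptprc, which marks all leukocytes, was not. Of 7 osteoblast markers, Runx2 (0.993 and 1.17) and Dmp1 (0.458 and 0.590) were taken. Of 7 fibroblast markers, Pdgfra had an RPKM of 0.723 and 0.584 and Pi16 of 0.555 and 0.586, and Ly6a, which encodes the surface antigen Sca-1, stood higher with 14.6 and 6.34 RPKM (mean 10.5 ± 5.81, SD, n = 2). Of 7 smooth muscle markers 5 were taken, with a median of 15.4, and 3 of them lay above the median of all rows. Acta2 was among the 10 most abundant rows of the cells and Tagln reached 99.4 ± 8.72. Cnn1 was at 1.74 ± 0.181, and Myh11 and Myocd had no row among those taken. Of 12 markers of satellite cells and undifferentiated myoblasts, 9 were taken, with a median of 11.1, and 5 of them lay above the median of all rows. Besides Sdc4 and Myf5, these were Heyl, Id1 and Id2, the last with 22.2 ± 1.36. Pax7, the factor that defines satellite cells, was not among them, Pax3 was under the limit, and the highest was Sdc4 with 79.9 ± 14.8.

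The levels were held by few rows. The middle 50% of rows lay between a mean RPKM of 2.91 and 19.4, and the most abundant row was 9356 times the median. The 106 rows with a mean of at least 500 held 55.3% of the summed RPKM of si-SCR 1 and 52.8% of that of si-SCR 2. The 3459 rows of 1 to 5 held 1.75% and 2.0%. The 10 most abundant rows held 35.6% and 33.6% and the 100 most abundant 54.6% and 52.2%. The samples shared 9 of their 10, 24 of their 25 and 95 of their 100 highest rows.

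**Figure D1:**
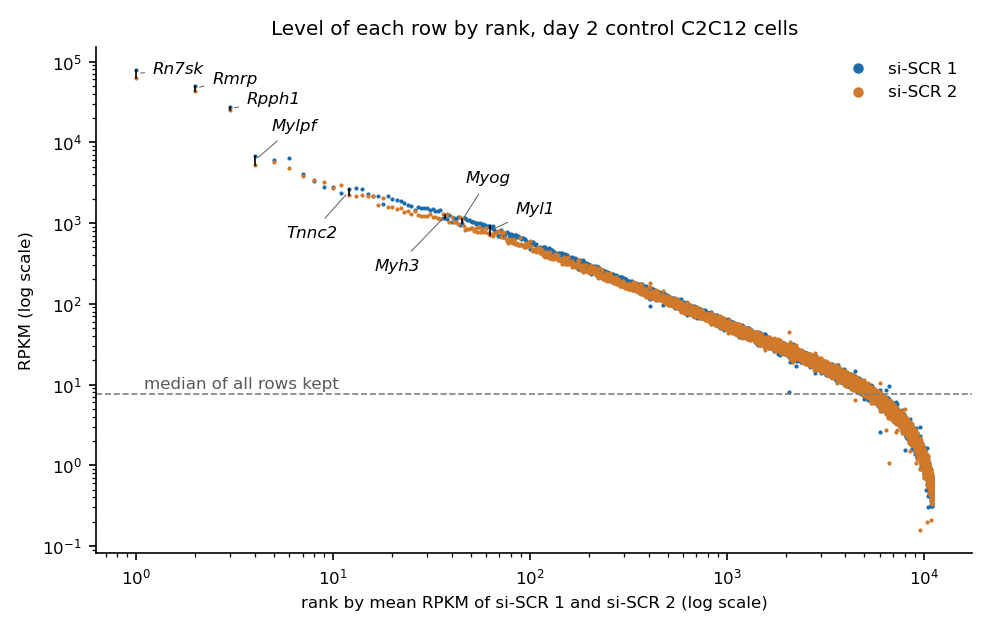
RPKM of each row in si-SCR 1 and si-SCR 2 (both on log scales) against the rank of its mean RPKM, with the 3 most abundant rows and the 5 markers named and the median of all rows as a dashed line. The markers stand between mean RPKM 809.5 (Myl1) and 5988 (Mylpf), against a median of 7.59.

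The 3 most abundant rows were small RNAs made by RNA polymerase III. Rn7sk, the 7SK RNA that holds back the elongation factor P-TEFb, had 78594 and 63488 RPKM (mean 71041 ± 10681, SD, n = 2). Rmrp, the RNA of the RNase MRP that cuts precursor rRNA, had 50234 and 43722 RPKM (mean 46978 ± 4605, SD, n = 2). Rpph1, the RNA of RNase P, which trims tRNA precursors, had 27433 and 24795 RPKM (mean 26114 ± 1865, SD, n = 2). Each of these was lower in si-SCR 2. With Rprl3, an RNase P RNA-like row at 3377 ± 70.9, they made up 30.1% and 28.3% of the summed RPKM but 4.75% and 4.08% of the reads, because the 3 are only 271 to 331 bases long. Of the stretches of 100 bases in Rn7sk, 61.2% also occurred in transcripts of other GENCODE genes, and the same held for 60.9% of those in Rpph1, which overlaps Ccnb1ip1. The levels of both may therefore hold or lack reads of other genes.

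Next came the mRNAs of muscle and of protein synthesis. Mylpf was followed by the row of H19 and Mir675, with 6058 and 5651 RPKM (mean 5854 ± 287, SD, n = 2), and by Lgals1, which encodes galectin-1, a lectin of myoblasts, with 6406 and 4814 RPKM (mean 5610.0 ± 1126, SD, n = 2). Eef1a1, the elongation factor that brings tRNAs to the ribosome, had 4106 and 3773 RPKM (mean 3939 ± 235, SD, n = 2) in a row shared with Gm26377. The actin genes Acta1 and Acta2 had means of 3009 ± 326 and 2744 ± 47.2, and the troponins Tnnc2 and Tnnc1 had 2446 ± 278 and 2443 ± 405. The ribosomal proteins Rps12 (2429 ± 285), Rpl8 (2210.1 ± 95.9), Rpl41 (1924 ± 337), Rpl23a (1789 ± 274), Rpl32 (1710.4 ± 289), Rpl37a (1574 ± 301) and Rplp1 (1549 ± 195) also stood among the 25 highest rows. Cardiac actin Actc1 had 2159 ± 37.4 and fast troponin T, Tnnt3, had 1699 ± 256. C1qtnf3, which encodes a secreted protein of the C1q and TNF family, closed the 25 with 1628 and 1303 RPKM (mean 1466 ± 229, SD, n = 2). Of the 106 rows of at least 500, 45 were cytoplasmic ribosomal proteins, 12 belonged to the contractile lists and 10 were non-coding.

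Non-coding RNAs held few rows and a large share of the level. The 43 rows of small structured RNAs (small nuclear, nucleolar and Cajal body RNAs and the RNAs above) had a median of 25.5 and held 31.5% and 29.5% of the summed RPKM. The 234 rows of long non-coding RNAs had a median of 1.54, against 7.93 for 10021 protein-coding rows, and held 1.19% and 1.51%. Rows that join overlapping genes, among them that of H19, were left out of these classes. The 532 joined rows, coding and non-coding together, held 5.94% and 5.96%. The 10 highest non-coding rows included the 4 polymerase III RNAs, H19, and Malat1, a nuclear RNA of speckles, with 1745 and 2015 RPKM (mean 1879.9 ± 191, SD, n = 2). Snora73b, a small nucleolar RNA of which every stretch of 100 bases also occurs in Gm17300, had 2177 and 1564 RPKM (mean 1870.4 ± 433, SD, n = 2), and Rnu3a, a U3 RNA that guides rRNA processing, had 1151 and 829 RPKM (mean 990.2 ± 228, SD, n = 2). Gm26917 had 2372 and 2939 RPKM (mean 2656 ± 402, SD, n = 2) and AY036118 1165 and 1285 RPKM (mean 1225 ± 85, SD, n = 2). Both lie next to each other on chromosome 17 of GRCm38, from 39843013 to 39846341 and from 39847113 to 39848035. RefSeq places Rn18s-rs5, a pseudogene related to 18S rRNA, at 39846354 to 39848202 on the same chromosome. It covers AY036118, which is on the opposite strand, and begins just past the end of Gm26917, and whether reads of these rows come from rRNA was not tested. Malat1, Gm26917 and AY036118 were higher in si-SCR 2, and Snora73b and Rnu3a were lower.

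H19 is an imprinted long non-coding RNA of embryonic and regenerating muscle, and it is the precursor of miR-675. The mature microRNAs are shown because their hosts are among the rows taken, with the seed (bases 2 to 8) in capitals, 5′ to 3′, from RefSeq.
mmu-miR-675-5p: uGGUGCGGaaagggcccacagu
mmu-miR-675-3p: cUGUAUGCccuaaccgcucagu
mmu-miR-206-3p: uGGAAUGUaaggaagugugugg
These libraries do not measure mature microRNAs. The row that joins Mir206, the locus of the muscle microRNA miR-206, with Gm28653 had 72.2 and 67.6 RPKM (mean 69.9 ± 3.29, SD, n = 2). No 2 of the 3 seeds are the same.

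By reads in place of reads per length, the order changed toward long transcripts. Ttn, the giant spring protein of the sarcomere, ranked 438 by RPKM with 109.8 and 149 RPKM (mean 129 ± 27.8, SD, n = 2), but 2 by reads, with 162362 and 246209 reads (1.24% and 1.70% of all reads counted). Malat1 stood at 4 and Myh3 at 9 by reads. To reach 50% of the summed RPKM, 64 rows were needed in si-SCR 1 and 81 in si-SCR 2, and to reach 50% of the reads 466 and 500.

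The contractile apparatus was expressed almost as a whole. Of 66 genes of the thin filament, the thick filament and the Z-disc, 59 were taken, with a median of 45.8 against 7.59 over all rows, and 24 had a mean of at least 100. Together they held 5.17% of the summed RPKM of si-SCR 1 and 5.28% of that of si-SCR 2. The thin filament stood highest, with 17 of 18 genes taken and a median of 382. Besides the actins and troponins it held Tpm2, beta-tropomyosin, with 694 and 799.5 RPKM (mean 747 ± 74.7, SD, n = 2), and Lmod3, which nucleates thin filaments, with 118 ± 4.04. Neb, the ruler of thin filament length, had 67.5 and 91.6 RPKM (mean 79.5 ± 17, SD, n = 2), and Nrap, a scaffold of early myofibrils, had 3.96 ± 0.602.

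In the thick filament, 16 of 20 genes were taken, with a median of 45.5 and a range from 0.843 (Mybpc2, the fast myosin-binding protein C) to 5988 (Mylpf). In the M-band, which links the thick filaments, Myom2 had 78.4 ± 8.27, Myom1 45.1 ± 1.49 and Myom3 26.2 ± 5.02. In the Z-disc, which anchors the thin filaments, 26 of 28 genes were taken with a median of 27.8. The highest were Des, the muscle intermediate filament desmin (713 ± 70.9), Actn3, alpha-actinin-3 (465 ± 29.4), and Ankrd1, a titin-binding ankyrin repeat protein (308 ± 27.4). Tcap, which caps titin at the Z-disc, had 2.91 ± 0.219, below the median of all rows. Xirp1 (6.6 and 11.5) and Synpo2l (23.4 and 35.9), both actin-binding proteins, differed between the samples by more than 1.5-fold.

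**Figure D2:**
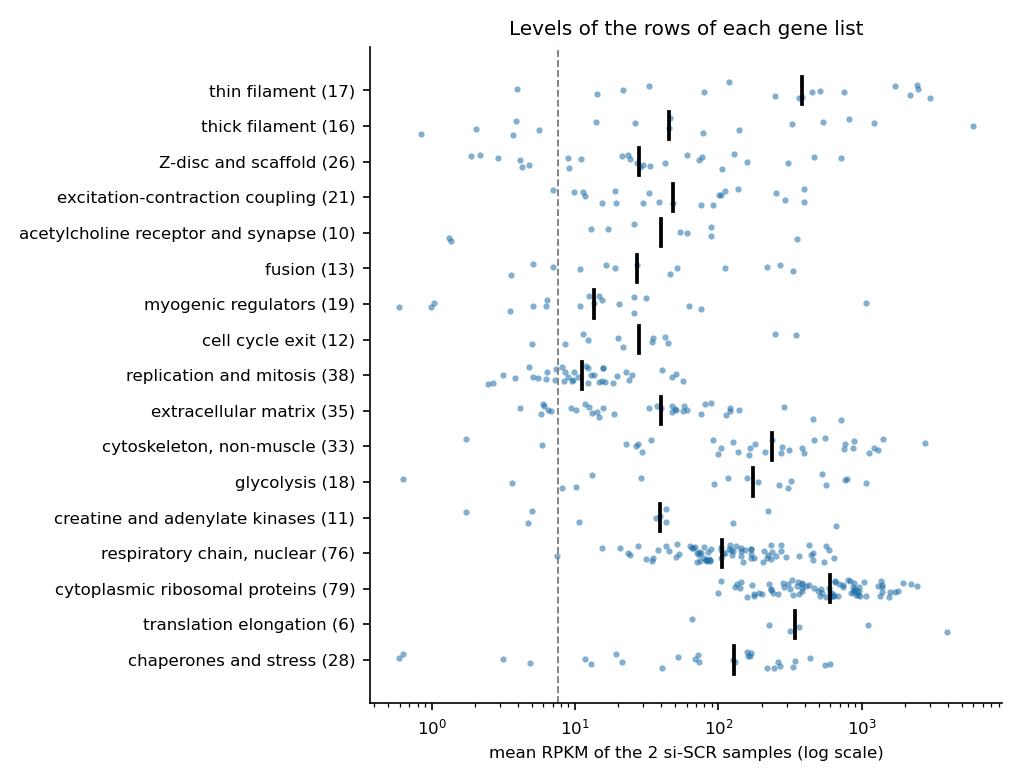
Mean RPKM of the 2 si-SCR samples (log scale) for each row of 17 gene lists, 1 point a row, with the number of rows in parentheses, the list median as a black bar and the median of all rows as a dashed line. Each list median lies above 7.59, from 11.2 for replication and mitosis to 596 for cytoplasmic ribosomal proteins.

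Paralogs were compared in 61 families, of which 58 had at least 2 members among the rows taken. The same member led in both samples in 56 of these, and it held more than 50% of the family's summed RPKM in both samples in 48 and more than 90% in 8. Where only 2 members were taken, the leader holds more than 50% by definition. The count of 48 therefore depends on the number of members taken. In 34 families the leader was more than 2 times the next member in both samples. In 18 it was under 1.5 times the next member in at least 1 sample. Per base of the longest annotated transcript, a length added after the values were seen, the leader was the same in 47 of 54 families with a value, and it changed for troponin C, the essential myosin light chains, the E proteins, the alpha-tubulins, the IGF binding proteins, the voltage-dependent anion channels (VDAC) and the muscleblind proteins.

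Myosin was mainly embryonic and fast. Of the RPKM of the sarcomeric heavy chains, Myh3 held 86.4% and 84.0% in si-SCR 1 and si-SCR 2. The adult fast chain Myh1 followed with 119 and 160.1 RPKM (mean 139 ± 29.2, SD, n = 2), then Myh4 with 45.8 ± 7.75 and the neonatal chain Myh8 with 14 ± 1.59. The slow chain Myh7 had 5.64 ± 0.0210, the adult fast chain Myh2 3.67 ± 0.290 and the cardiac chain Myh6 0.580 ± 0.0701. Myh1 and Myh2 share 14.7% and 11.2% of their 100-base stretches with transcripts of other genes, and the reads of these stretches could be split between genes. Among the regulatory light chains Mylpf held 90.3% and 88.5%, ahead of Myl9 with 466 ± 9.31, a light chain of smooth and non-muscle myosin. Among the essential light chains the non-muscle and smooth muscle form Myl6 (1288 ± 193) was above the fast form Myl1 (809.5 ± 137) and the embryonic form Myl4 (328 ± 32.3). Per base of the longest transcript, Myl1 led Myl6. Myh9, the main non-muscle heavy chain, had 104 ± 16.4.

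Among the actins, no single member dominated. Acta1, skeletal alpha-actin, had 2778 and 3239.8 RPKM (mean 3009 ± 326, SD, n = 2), and Acta2, the smooth muscle form, had 2777 and 2710.4 RPKM (mean 2744 ± 47.2, SD, n = 2), so that the pair was level in si-SCR 1 and 1.2 times apart in si-SCR 2. Actc1, the cardiac form that embryonic skeletal muscle also uses, had 2133 and 2186 RPKM (mean 2159 ± 37.4, SD, n = 2), and its values overlapped with neither of them. The cytoplasmic actins Actb (1207 ± 127) and Actg1 (750.2 ± 73.0) were lower, and Actg2 had 16.4 ± 4.47. No 100-base stretch of Acta1, Acta2 or Actc1 occurred in a transcript of another gene. The slow and cardiac troponin C, Tnnc1 (2729.8 and 2157), and the fast form, Tnnc2 (2643 and 2249), changed places between the samples. Of the 100-base stretches of Tnnc2, 25.6% also occur in a transcript of Ube2c, against 0% of those of Tnnc1. The level of Tnnc2 may therefore hold or lack such reads, and the order of the pair is uncertain. Fast troponin I, Tnni2 (509 and 394), was 1.36 and 1.1 times the slow form Tnni1 (374 and 357). Fast troponin T, Tnnt3, held 70.4% and 67.8% of its family, followed by the slow form Tnnt1 (508 ± 43.5) and the cardiac form Tnnt2 (248 ± 6.69).

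**Figure D3:**
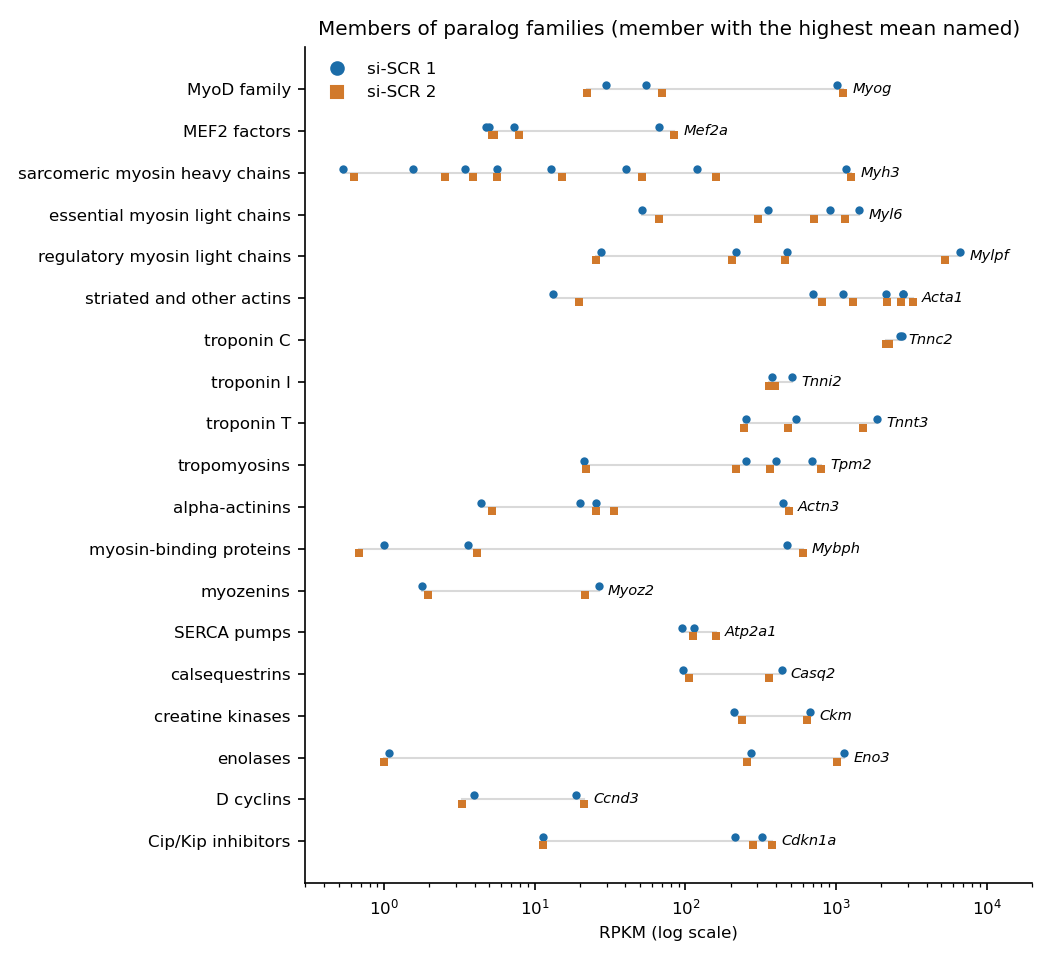
RPKM (log scale) of each member of 19 paralog families in si-SCR 1 (circles) and si-SCR 2 (squares), with the member of highest mean named. Families such as the myosin-binding proteins (Mybph, mean 537) are led by 1 member, while Tnnc1 and Tnnc2 (2443 and 2446) lie together.

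Other muscle families were led by 1 member. Mybph, myosin-binding protein H, held 99.0% and 99.2% of the RPKM of the myosin-binding proteins, with 474 and 600.0 RPKM (mean 537 ± 88.8, SD, n = 2), against 3.85 ± 0.364 for the slow form Mybpc1. Of the stretches of Mybph, 39.2% also occur in a transcript of the neighbouring gene Adora1. Actn3 held 89.9% and 88.3% of the alpha-actinins, while Actn2, the other sarcomeric form, had 4.82 ± 0.581, less than the non-muscle forms Actn1 (29.5 ± 5.85) and Actn4 (22.7 ± 3.88). Myoz2, the slow form of the calcineurin-binding calsarcins, had 24.1 ± 3.57 against 1.87 ± 0.140 for Myoz1. Tpm2 held 50.6% and 57.1% of the tropomyosins, ahead of Tpm1 (382 ± 28.6) and Tpm4 (236 ± 24.9). Cav3, the muscle caveolin, held 82.6% and 83.4% of its family, and Myof, a ferlin of fusing myoblasts, 86.9% and 86.7%, ahead of dysferlin, Dysf (7.0 ± 1.27). Itga7, the laminin-binding integrin of muscle, had 218 ± 25.7 and held 84.1% and 82.9% of the integrin alpha chains examined.

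The machinery that turns a nerve signal into calcium release was present. Of 22 genes of excitation-contraction coupling, 21 were taken with a median of 48.6. The highest were Casq2, the cardiac and slow calcium-storing calsequestrin (435 and 361 RPKM, mean 398 ± 51.9), and Bin1, which shapes the T-tubules (385 and 409 RPKM, mean 397 ± 16.7). Casq2 was 4.48 and 3.41 times the fast form Casq1. The fast calcium pump Atp2a1 (115 and 159) stood above Atp2a2 (94.4 and 113), the form of slow muscle, and both values of Atp2a1 lay above both of Atp2a2. The release channel Ryr1 had 9.68 and 13.9 and Ryr3 6.20 and 7.92. Of the calcium channel subunits, the gamma subunit Cacng1 had 253 ± 2.81 and the pore Cacna1s 19.4 ± 3.57. Of the nicotinic acetylcholine receptor of the neuromuscular junction, the alpha subunit Chrna1 had 363 and 346 RPKM (mean 354 ± 11.7, SD, n = 2), the beta subunit Chrnb1 88.7 ± 8.78, the delta subunit Chrnd 60.3 ± 8.14 and the fetal gamma subunit Chrng 88.4 ± 9.56, while the adult epsilon subunit Chrne had no row among those taken. Of 12 genes of the receptor and its synapse, 10 were taken, and Ache, acetylcholinesterase, lay below the limit.

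Among the transcription factors of the muscle lineage, Myog held 92.3% and 92.3% of the RPKM of the MyoD family. Myod1, which commits cells to the lineage, had 54.8 and 70.1 RPKM (mean 62.5 ± 10.8, SD, n = 2), and Myf5, a factor of proliferating myoblasts, 29.6 and 22.2 RPKM (mean 25.9 ± 5.27, SD, n = 2). Mef2a led the MEF2 factors with 67.2 and 84.0 RPKM (mean 75.6 ± 11.9, SD, n = 2), against 6.35 ± 1.36 for the row of Mef2b, 6.30 ± 2.21 for Mef2d and 5.10 ± 0.149 for Mef2c. The E proteins that pair with MyoD factors were close together, with Tcf4 at 14.3 and 16.6, Tcf12 at 14.2 and 15.1 and Tcf3 at 13.2 and 13.8. Tead4 (31.1 ± 3.09), a factor upstream of muscle genes, led the TEAD factors. Id2 (22.2 ± 1.36) and Id1 (13.3 ± 1.1), which block E proteins, were above Id3 (3.06 ± 0.204). Of the 19 regulators taken, 12 lay above the median of all rows, and Myog alone was above 100. The list of 19 symbols of myoblast fusion names myomaker and myomixer each under an older and a newer symbol. Of these symbols 13 were taken, with a median of 27.0. The 2 membrane proteins that fuse myoblasts were among the highest of them, myomaker, under its older symbol Tmem8c, with 236 and 305 RPKM (mean 270.4 ± 49.0, SD, n = 2), and myomixer, under Gm7325, with 354 and 314 RPKM (mean 334 ± 28.6, SD, n = 2). Cdh15, the muscle cadherin, had 193 and 242 RPKM (mean 218 ± 35, SD, n = 2).

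Genes of cell cycle exit and genes of replication were detected together. The inhibitors Cdkn1a (321 and 378 RPKM, mean 349.6 ± 40.4) and Cdkn1c (213 and 279.6 RPKM, mean 247 ± 46.8), which encode p21 and p57, were far above Cdkn1b (11.3 ± 0.0853), which encodes p27. Cyclin D3, Ccnd3, the D cyclin of differentiating muscle, held 82.5% and 86.7% of the D cyclins, and Rb1 80.6% and 81.7% of the pocket proteins. All 12 genes listed for cell cycle exit were taken, with a median of 28.1. All 38 genes of replication and mitosis were among the rows taken, with a median of 11.2 and a range from 2.46 (Cdt1) to 56.6 (Rrm1). Top2a had 52.2 and 42.2, Mki67 20.1 and 19.3 and Pcna, the sliding clamp of DNA polymerases, 56.0 and 45.9. None of the 38 reached 100, a level that 5.11% of all rows reached. How many cells were still dividing was not measured.

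The secreted matrix was led by Sparc, a collagen-binding protein (666 and 768 RPKM, mean 717 ± 72.1), Serpinh1, the collagen chaperone (456 ± 3.87), and Col3a1 (285 ± 18.2). Of 39 matrix genes 35 were taken, with a median of 40.1. Col3a1 held 47.5% and 45.5% of the fibrillar collagens examined, above Col5a2 (121 ± 0.565), Col1a2 (113 ± 18.1) and Col1a1 (47.4 ± 10.5). Of the cytoskeleton outside the sarcomere, 24 of 33 genes were at 100 or above. Tubb6 led the beta-tubulins with 888 ± 4.74, and Tuba1a (866 ± 3.58) and Tuba1b (769 ± 21.8) led the alpha-tubulins. Of their 100-base stretches, 65.8% and 73.0% occur in transcripts of other genes, and the order of these 2 is therefore uncertain. The actin-binding thymosins Tmsb10 and Tmsb4x had 1415 ± 25.2 and 1129.9 ± 159. The intermediate filaments of immature muscle, Vim (386 ± 28.8) and Nes (309 ± 60.7), stood below Des (713 ± 70.9).

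In energy metabolism the muscle form led the enolases, creatine kinases, phosphofructokinases, glycogen phosphorylases and phosphoglycerate mutases, but not the families of cytochrome c oxidase. All 18 genes of glycolysis were taken, with a median of 174, and 11 of 14 genes of the creatine and adenylate kinases, with 39.5. Eno3, the muscle enolase, had 1132 and 1021 RPKM (mean 1077 ± 78.1, SD, n = 2) and held 80.5% and 79.8% of the enolases, ahead of Eno1 (265 ± 10.5), of which 59.0% of the stretches occur elsewhere. Ckm, the muscle creatine kinase, had 676 and 641 RPKM (mean 658 ± 24.5, SD, n = 2) and held 76.3% and 73.0% of its family, with the brain form Ckb at 224 ± 19.5. Aldoa held 99.9% and 99.9% of the aldolases and Ldha 97.4% and 97.4% of the lactate dehydrogenases. Pfkm, the muscle phosphofructokinase, held 77.9% and 78.8%, and Pygm, the muscle glycogen phosphorylase, 81.9% and 85% of their families. Pgam2, the muscle mutase, was 1.22 and 1.17 times Pgam1. Of the stretches of Pgam1, 39.7% also occur elsewhere, against 0% of those of Pgam2, so the order of the mutases is uncertain. Of the muscle forms of cytochrome c oxidase, Cox6a2 (53.1 ± 10.7), Cox7a1 (15.5 ± 2.37) and Cox8b (104 ± 14.6) were below the forms of other tissues, Cox6a1 (205 ± 4.29), Cox7a2 (232 ± 32.5) and Cox8a (548 ± 35). The glucose transporter was Slc2a1 (14.8 ± 1.88), while Slc2a4, the insulin-regulated form of adult muscle, lay just below the limit.

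Other families separated the muscle form from the form of most cells in either direction. Among the small heat shock proteins, Hspb8 and Cryab, alpha-B-crystallin, were close, with 161 and 177 RPKM for Hspb8 and 153 and 163 for Cryab. Of the cofilins, which cut actin filaments, the general form Cfl1 (553 ± 15.4) was above the muscle form Cfl2 (204 ± 14.5). Of the calponins, Cnn3 held 82.4% and 79.4%, and of the profilins Pfn1 (272 ± 26.6) was above Pfn2 (5.86 ± 0.860). The splicing regulators were led by Rbfox2 (93.4% and 94.0% of the Rbfox RPKM), Celf1 (79.2% and 79.2% of the CELF RPKM) and Mbnl2 (42.9 and 47.2 RPKM, against 17.3 and 17 for Mbnl1). Ptbp1, which represses exons of differentiated cells, had 23.8 and 28.3, ahead of Ptbp3 (18.3 and 16.4) and Ptbp2 (10.7 and 9.53). The hexokinase Hk1 was 1.22 and 1.35 times Hk2, the insulin-responsive form.

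Of 20 genes that mark adult fast muscle, 19 were taken with a median of 78.4, and 9 reached 100. They include Eno3, Ckm, Actn3 and Myh1. The list also holds Mb, myoglobin, which is characteristic of oxidative fibres and had 349 and 247 RPKM (mean 298 ± 72.5, SD, n = 2). At the lower end, Pvalb, the calcium buffer parvalbumin, had 11 ± 2.53, Ampd1, the muscle AMP deaminase, 1.73 ± 0.569, Myoz1 1.87 ± 0.140 and Mybpc2 0.843 ± 0.226. The list thus ran from 0.843 to 1077.

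Protein synthesis held the largest share of the summed RPKM among the lists. The list of 80 symbols of cytoplasmic ribosomal proteins names the same gene as Rps3a1 and as Rps3a. Of these symbols 79 were taken, with a median of 596, and they held 11.5% and 10.4% of the summed RPKM. The lowest, Rpl24, had 109 and 88.9 in a row joined with 2 other genes. Although most ribosomal proteins are present once in each ribosome, the RPKM of their genes ran from 99.0 to 2429. Of these rows 19 join overlapping genes, and in the ribosomal genes examined the median share of stretches found in other transcripts was 19.8%, against 0% for 188 other paralogs and top rows. All 76 nuclear genes of the respiratory chain were taken, with a median of 106. Of 7 elongation factors 6 were taken, with a median of 339.6. The highest respiratory gene was Atp5b, a subunit of ATP synthase, with 646 and 636 RPKM (mean 641 ± 6.97, SD, n = 2). Among 28 chaperones and stress genes, Hsp90ab1 had 596 ± 87.6, Hspa8 555 ± 38.9 and the stress factor Atf4 434 ± 8.95, while the heat-inducible Hspa1a had 0.631 ± 0.0493 and Hspa1b 4.84 ± 0.865.

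Of the insulin-like growth factors, Igf2, made by differentiating myoblasts, had 116 and 144 RPKM (mean 130.1 ± 20.1, SD, n = 2), while Igf1 lay below the limit. The binding proteins Igfbp5 (104 and 126) and Igfbp2 (108 and 107) changed order between the samples, and Igfbp6 followed with 87.1 ± 8.70. Of the imprinted genes, H19 and Cdkn1c were high, Peg3 had 20.8 ± 2.54 and Mest 7.26 ± 0.440, and Grb10 and Plagl1 lay below the limit.

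Level varied with the size of the gene. Among 10021 protein-coding rows, the median length of the longest transcript was 3922 bases for rows of 1 to 5, 2759.5 for rows of 20 to 100, 1996 for rows of 100 to 500 and 1148.5 for rows over 500. The median number of exons fell from 10 in the lowest class to 4 in the highest. Across these rows Spearman's rho of level with length was -0.28 and with GC content -0.05. These are descriptions across genes, which share the 2 libraries, and the level is itself divided by a length. GC content had medians between 48.9% and 53.1% in the 6 classes.

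Pull-down peaks were set beside the level, since the lists of peaks come from C2C12 cells at day 2. Of 10360 rows with a gene model, 34 had a peak of the control LacZ probes in an exon on the same strand and 55 a peak of the lnc-SMaRT probes. For the LacZ probes the share was 0.205% of rows of 5 to 20 and 3.3% of rows over 500 (3 of 91). For the lnc-SMaRT probes it was 0.205% and 18.7% (17 of 91). Both shares were highest among the rows over 500, and none of the 680 rows of 0.5 to 1 had a peak of either kind. Each pull-down was 1 library, and the relation was not tested.

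The 2 control samples agreed closely in the order of the rows. Across the 11037 rows, Pearson's r of log2(RPKM + 0.1) was 0.991 and Spearman's rho 0.991, both descriptions across genes and not over independent replicates. The difference of si-SCR 2 minus si-SCR 1 on this scale had a median of 0.01 and an SD of 0.28, and 95% of rows lay between -0.49 and 0.52. More than 1.5-fold apart were 331 rows (3.0%), 179 higher in si-SCR 2 (1.62%) and 152 lower (1.38%). The count of 331 was 63 with a pseudocount of 1 and 51 among rows with a mean of at least 5. More than 2-fold apart were 32. Of the 331, 262 had under 100 reads in at least 1 sample.

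The spread fell with the level but less than counting error did. The SD of the difference was 0.41 for rows of 0.5 to 1, where counting error alone gives a median SD of 0.33. For rows of 20 to 100 it was 0.22 against 0.055, and for rows over 500 it was 0.21 against 0.015. The share of rows within 2 SDs of counting error fell from 92.5% in the lowest class to 4.72% in the highest. The reads were fixed by a gene model in 5793 of the 11037 rows and are lower limits in the others. Counting error is overstated where reads are too low, and the 0.1 added to the RPKM shrinks the difference of low rows. Both can raise the shares within 2 SDs. The median difference also moved with the level, from 0.06 for rows of 1 to 5 to -0.27 for rows over 500. These errors cover counting only, since the reads carry no molecular identifiers, and the reads of 1 sample per side give no replicate check.

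**Figure D4:**
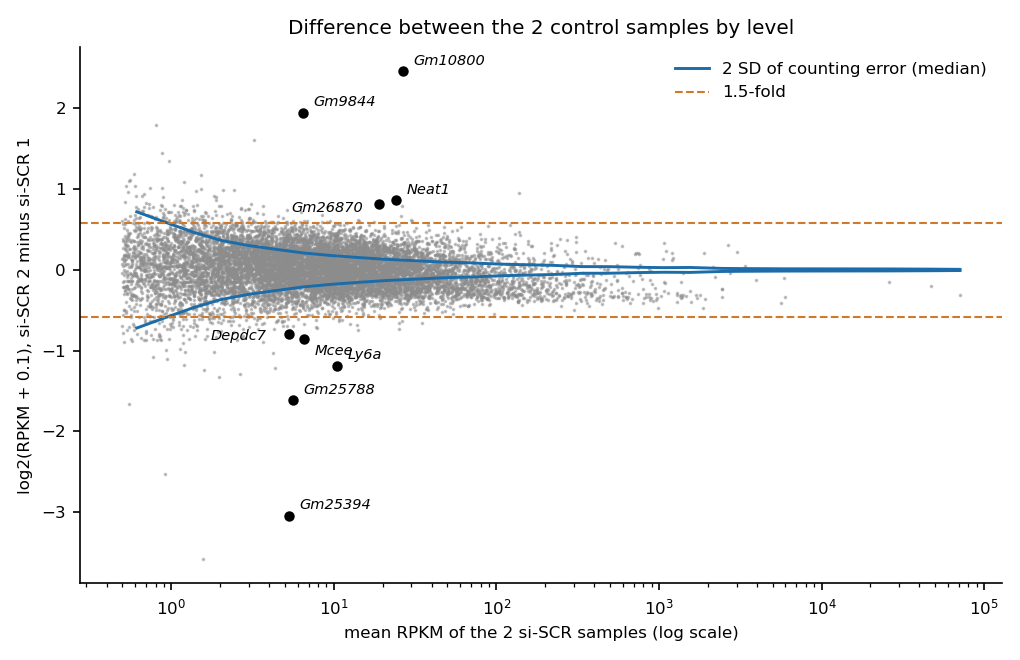
Difference of log2(RPKM + 0.1), si-SCR 2 minus si-SCR 1, against the mean RPKM (log scale), 1 point a row, with the median of 2 SDs of counting error (blue lines), 1.5-fold (dashed) and the 9 rows named in the text in black. Gm10800, at 8.08 and 44.9 RPKM, stands highest of the named rows.

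Among rows with a mean of at least 5, the largest rises from si-SCR 1 to si-SCR 2 included Gm10800 (8.08 and 44.9), Gm9844 (2.61 and 10.4), Neat1 (17.1 and 31.3) and Gm26870 (13.8 and 24.3). Neat1 is the RNA scaffold of nuclear paraspeckles. On the log2 scale Neat1 differed by 0.87, with a 95% counting interval of 0.81 to 0.92. The 5 largest falls were in Gm25394 (9.51 and 1.06), Gm25788 (8.45 and 2.70), Ly6a (14.6 and 6.34), Mcee (8.44 and 4.64) and Depdc7 (6.79 and 3.88). Gm25394 rested on 16 and 2 reads and Gm25788 on 14 and 5, while Ly6a rested on 222 and 108 and differed by -1.19. In these 9 rows both samples are controls of the same kind, so the differences are no effect of a treatment. The rows were picked by the size of the difference, so they give its extremes and not its usual spread. With 1 library against 1 library, differences of the cells, the library and counting cannot be told apart.

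The difference between the control samples rose with the GC content and with the length of the transcript. Among 10008 protein-coding rows, its median rose from -0.13 in the 20% of rows with the lowest GC content to 0.17 in the 20% with the highest. It rose from -0.15 in the 20% with the shortest transcripts to 0.15 in the 20% with the longest. Spearman's rho across rows was 0.39 with GC content and 0.36 with length, and -0.28 between GC content and length. When the trends with GC content and then with length were removed with a loess fit, the SD of the difference fell from 0.266 to 0.215. The count of coding rows more than 1.5-fold apart then fell from 269 (2.69%) to 155 (1.55%).

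**Figure D5:**
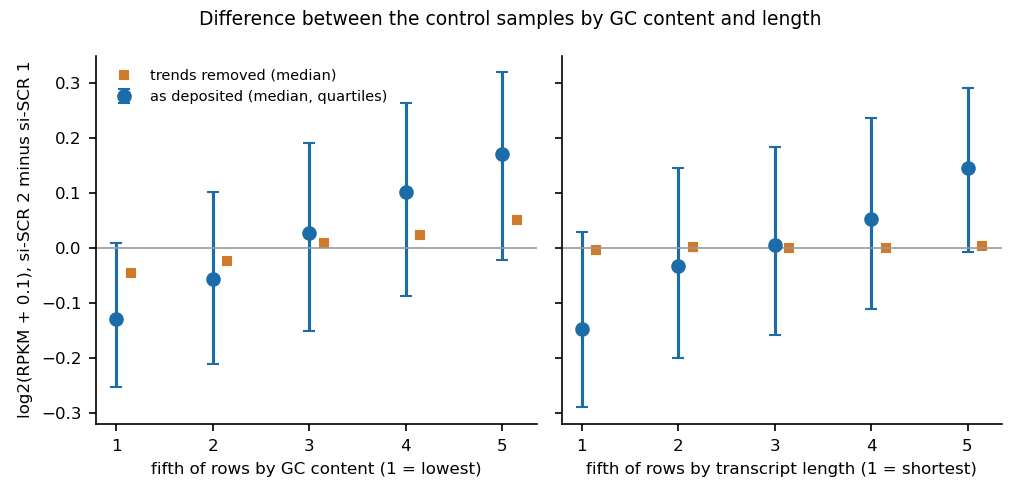
Difference of log2(RPKM + 0.1), si-SCR 2 minus si-SCR 1, in 5 equal groups of the protein-coding rows by GC content (left) and by length of the longest transcript (right), as medians with quartiles and, in orange, as medians after removal of both trends. The medians as deposited rise from -0.15 to 0.15 by length, and after removal stay within -0.04 and 0.05 by GC content.

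Several gene lists differed between the control samples in 1 direction. Ribosomal proteins were lower in si-SCR 2 in 77 of 79 rows, with a median difference of -0.31. Nuclear respiratory genes were lower in 71 of 76, with -0.28. Matrix genes were higher in 30 of 35, with 0.32, and replication genes lower in 32 of 38, with -0.18, against 0.01 over all rows. The median over all rows moved with the level. It was -0.27 over 500 RPKM, -0.16 at 100 to 500, -0.06 at 20 to 100 and 0.02 at 5 to 20. These classes include the rows of the lists, with 45 ribosomal proteins among the 106 rows over 500. The median levels of the lists were 596 RPKM for the ribosomal, 106 for the respiratory, 40.1 for the matrix and 11.2 for replication. Median transcript lengths were 1034.5 bases for the ribosomal, 1025.5 for the respiratory and 5629 for the matrix list. After removal of both trends the medians were -0.12, -0.06 and 0.12, over the 60, 72 and 35 rows with a GC content and length. For replication genes, of median length 3426, the median was -0.16, with 30 of 36 rows lower. Past 1.5-fold were 0 of the 79 ribosomal, 0 of the 76 respiratory, 0 of the 38 replication and 1 of the 35 matrix rows, against 3.0% of all rows. That share fell with the level, from 13.4% of rows of 0.5 to 1 through 0.97% of rows of 5 to 20 to 0.22% of rows of 100 to 500. The medians of these lists lie above that of all rows, so 3.0% is not a like comparison for them. The part of GC content and length in the directions of these lists was not tested further.

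At the limit of 0.5, the last rows taken were Cit (mean 0.5002), RP24-308M3.2 (0.5001) and Itga2b (0.5001), and the first rows left out were AA415398 (0.4997), Micall2 (0.4997) and RP24-327F2.1 (0.4989). Cit had 0.375 in si-SCR 1 and 0.625 in si-SCR 2, so a single sample would have placed it on either side. No row taken was listed at 0 in either sample, and the fewest reads behind a row were 5 in si-SCR 1 and 1 in si-SCR 2. Before deposition the authors had filtered genes by CPM over the depletion experiment, which includes the samples with the siRNA against lnc-SMaRT. The share of rows taken and the lack of zeros therefore describe rows that had passed that filter.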

How the data were processed

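C2C12 cells were sequenced on day 2 of differentiation after transfection with scramble siRNA in 2 samples, and the labels gave the group. The RPKM values were made and deposited by the authors, who used Trimmomatic for trimming, Bowtie2 to discard reads of rRNA and tRNA, and TopHat2 with the Ensembl 77 annotation for alignment to GRCm38. The authors then removed mitochondrial reads, counted with HTSeq in intersection-strict mode, left out genes of low CPM and normalized by TMM with edgeR. How reads with several matches and the strand were treated in counting is not given in the sources used here. The p-value of each peak was deposited by the authors, and peaks were used by position only, with an overlap of at least 1 base of an exon on the same strand.

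No p-value was calculated, since 1 group of 2 samples allows no comparison between conditions. Reads were worked out as RPKM times length over the value of 1 read. A length was accepted only if it gave whole reads in the controls and in the samples with the siRNA against lnc-SMaRT. For 6147 rows the length of all exons in GENCODE M21 gave whole reads (within 1e-05 of the value), and for 5495 rows the smallest whole reads were taken, which are lower limits. The reads summed to 13151997 and 14480021. This step was tested on simulated data. Because exons of all transcripts were pooled for the length, RPKM understates genes whose main transcript is shorter. The difference between samples was taken for all 11037 rows on log2(RPKM + 0.1), which understates that of low rows. GC content and longest transcripts came from GENCODE M21 and classes from its biotypes, or RefSeq where no single model matched. The loess span was 0.3. Named were the markers, the 25 highest rows, the 10 highest non-coding rows, list and family members, the 5 largest rises and falls at a mean of at least 5, and 3 rows on each side of the limit, and some of these genes are not reported here. The members and lists were chosen with earlier results of these data known. Alternatives were other filters, pseudocounts, quantile normalization, reads, each sample left out and, added after the values were seen, the longest transcript as length and sums without 4 polymerase III RNAs. The tools were bedtools 2.31.1, matplotlib 3.10.9, statsmodels 0.14.6, scipy 1.17.1, pandas 2.3.3 and numpy 2.4.6 under Python 3.11.15.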

Additional observations from a re-analysis of the deposited data

How the results depend on the processing

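No paired analysis was possible because only 1 group of 2 samples was described. With each sample left out in turn, the rows at or above 0.5 numbered 10990 to 11033, the 10 highest rows held 33.7 to 35.6% and the 100 highest 52.3 to 54.7% of the summed RPKM, the contractile lists 5.17 to 5.28% and the ribosomal proteins 10.4 to 11.5%, and 56 to 58 families of 58 kept their leader. The markers lay at 1015 to 1114 (Myog), 2249 to 2643 (Tnnc2), 713 to 906 (Myl1), 5289.9 to 6687 (Mylpf) and 1161 to 1259.8 (Myh3). A minimum mean of 5 left 6815 rows. With recovered reads in place of RPKM, the 10 highest rows held 11.5%, the 100 highest 29.3%, the contractile lists 6.84% and the ribosomal proteins 7.83%, and 43 families kept their leader. Without the 4 polymerase III RNAs the same shares were 10.4%, 34.8%, 7.38% and 15.4%. Per base of the longest transcript, 47 of 54 families with a value kept their leader. Rows more than 1.5-fold apart numbered 63 with a pseudocount of 1, 51 at a minimum mean of 5 and 191 after removal of both trends, the last over 10360 rows of which 305 were so before. The correlation stayed between 0.989 and 0.993 under each pseudocount and filter. For single lists and families, with reads in place of RPKM or without the 4 RNAs, 96 of 106 values moved by more than the spread between the samples. Values with 1 sample left out are those of the other sample, so they cannot move past that spread. Reads not fixed by a gene model are lower limits, so shares by reads are approximate.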

Other observations

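Of the 106 rows with a mean RPKM of at least 500, 22 were on none of the lists or families, and the following were chosen after their values were seen. Among them are small metal-binding proteins, S100a4 (1456 and 1109 RPKM, mean 1282 ± 245), S100a6 (571 and 454 RPKM, mean 513 ± 82.8) and Crip1 (676 and 558 RPKM, mean 617 ± 83.3). Tpt1, the translationally controlled tumour protein, had 1156 and 1031 RPKM (mean 1093 ± 88.3, SD, n = 2). Cd63, a tetraspanin of late endosomes, had 637 and 622 RPKM (mean 629 ± 10.5, SD, n = 2), and Fth1, the ferritin heavy chain that stores iron, had 554 and 559 RPKM (mean 556 ± 4.06, SD, n = 2). Ppia, the cyclophilin often used as a reference gene, had 670.4 and 534 RPKM (mean 602 ± 96.4, SD, n = 2). Its 2 values differed by -0.33 on the log2(RPKM + 0.1) scale, against 0.01 for Fth1 and -0.03 for Cd63. The median difference of all 106 rows over 500 was -0.27, with an SD of 0.21, so that of Ppia was usual for its level. Rps27rt (1410.3 ± 217), Rps12-ps3 (796 ± 160.2) and Gm10260 (666 ± 134) are rows beside the ribosomal protein list, and reads they share with other genes cannot be told apart here. Yam1, a row without a matched gene model, whose position and origin were not established here, had 948 and 1197 RPKM (mean 1072 ± 176, SD, n = 2).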
